A study of Mus musculus with 12 samples.

Results

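The genes described here encode 10 receptors of the tumour necrosis factor (TNF) receptor superfamily that are known from lymphocytes. They are Tnfrsf8 (CD30), Tnfrsf4 (OX40), Tnfrsf9 (4-1BB), Tnfrsf18 (GITR), Fas, Cd27, Cd40, Tnfrsf13b (TACI), Tnfrsf13c (BAFF receptor) and Tnfrsf17 (BCMA). They were chosen by name out of 19937 genes measured on Affymetrix mouse gene arrays, all 10 were found, and each was read by 1 probe set that carries no other gene symbol. The 12 arrays hold total RNA of spleen lymphocytes from F1 mice with a C57Bl/6 and an FVB parent, 3 arrays for each of 4 labelled groups, and levels are the deposited log2 values from RMA, on which a difference of 1 is a 2-fold change. The groups are resting B cells, selected as CD43-negative and taken directly from the spleen (day 0), B cells after 4 days in culture with αCD40 and IL4, resting T cells, selected as B220-negative on day 0, and T cells after 4 days of activation, for which the labels name αCD3, αCD28 and IL2. By the methods, other cells were removed from the resting B cells with antibodies to CD5, which T cells carry, and to CD43. The others were to CD11b and Gr-1 of myeloid cells, to CD138 of plasma cells and to TER-119 of red cells. Whether separate mice gave the 3 arrays of a group is not stated, so p-values measure only the spread between these arrays.

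The summed levels of the T cell and B cell marker genes went against the labels in all 4 groups. The arrays are therefore called by their labels throughout. Over the 8 measured of 10 T cell markers, the summed level of an array was 13.4 to 13.5 log2 in the B-labelled resting arrays and 13.1 to 13.3 in the B-labelled activated ones, but 8.23 to 8.85 and 8.68 to 9.59 in the T-labelled resting and activated ones. Over the 9 measured of 10 B cell markers it was 10.54 to 11.95 and 8.35 to 8.71 in the B-labelled resting and activated arrays, against 12.8 to 13.1 and 14.6 to 14.7 in the T-labelled resting and activated ones. The background level was 5.21 log2, which is the 95th percentile of the olfactory receptor genes. The defining B cell genes Cd79a and Ms4a1 were not above it in the B-labelled activated arrays, in which 4 of the 9 B cell markers were. The T cell receptor subunit gene Cd3d was not above it in either T-labelled group. Of the 8 T cell markers, 6 were above it in the T-labelled resting arrays and 7 in the T-labelled activated ones. Cd5, the T cell marker among the removal targets, was at 9.73, 9.71 and 9.80 log2 in the B-labelled resting arrays. In the T-labelled resting ones it was at 5.82, 5.46 and 5.88. Over 6 of 7 genes of dividing cells, the sums were 12.6 to 12.7 in the B-labelled activated arrays and 12.1 to 12.2 in the T-labelled resting ones, against 8.39 to 8.89 and 8.24 to 8.83 in the B-labelled resting and T-labelled activated ones. Alas2, the 1 measured red cell gene, was not above the background in any group. Every direction below is a direction between labelled groups, and the part of these markers in the results was not tested. In samples of many cells, fewer cells of a type and less RNA per cell cannot be told apart.

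Receptors of the TNF family sit in the cell membrane and bind trimeric ligands of the TNF family, which neighbouring cells carry or release. Most of them recruit TRAF adaptor proteins and switch on NF-κB, which sustains survival, division and cytokine production, whereas Fas carries a death domain and can start apoptosis through FADD and caspase-8. CD30, OX40, 4-1BB, GITR and CD27 are known as costimulatory receptors of T cells, while CD40, TACI, BAFF receptor and BCMA are known from B cells and plasma cells, where they take up help from T cells and survival signals of the ligands BAFF and APRIL.

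**Figure D1:**
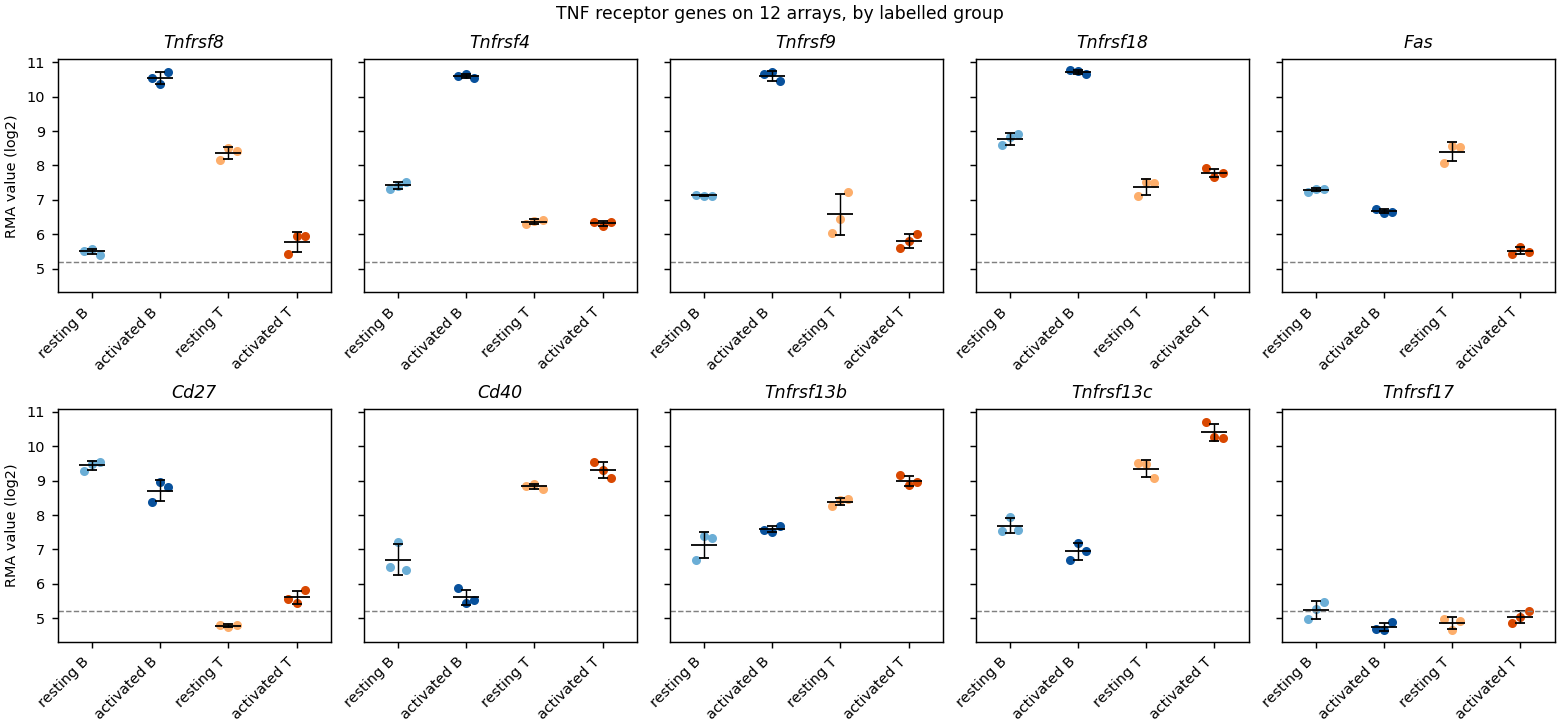
RMA values (log2, y axis) of the 10 receptor genes by labelled group (x axis), with 1 point per array, bars for mean and SD, and a dashed line at the background (5.21 log2). Tnfrsf8, Tnfrsf4, Tnfrsf9 and Tnfrsf18 were highest in the B-labelled activated arrays, Cd27 in the B-labelled resting ones, Fas in the T-labelled resting ones, and Cd40, Tnfrsf13b and Tnfrsf13c in the T-labelled activated ones.

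Between the B-labelled activated and resting arrays, all 10 receptor genes were called, that is, had an adjusted p under 0.05 in limma, and 36.5% of all genes were. Tnfrsf8, Tnfrsf4, Tnfrsf9, Tnfrsf18 and Tnfrsf13b rose, a direction in which 19.7% of all genes were called, and Fas, Cd27, Cd40, Tnfrsf13c and Tnfrsf17 fell (16.7% of all genes). The median difference was -0.02 log2 over the 10 genes and also -0.02 over all genes. Between the T-labelled activated and resting arrays, Tnfrsf18, Cd27, Tnfrsf13b and Tnfrsf13c rose, Tnfrsf8, Tnfrsf9 and Fas fell, and 3 genes were not called. Of all genes, 33.7% were called, 15.9% as higher and 17.8% as lower. The median was 0.29 log2, and 0.02 over all genes.

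Between the labelled cell types at rest, all 10 genes were called against 35.1% of all genes (16.1% higher and 19% lower), 5 of them higher in the B-labelled arrays (Tnfrsf4, Tnfrsf9, Tnfrsf18, Cd27 and Tnfrsf17) and 5 lower (Tnfrsf8, Fas, Cd40, Tnfrsf13b and Tnfrsf13c). Between the labelled cell types after activation, Tnfrsf8, Tnfrsf4, Tnfrsf9, Tnfrsf18, Fas and Cd27 were higher in the B-labelled arrays, Cd40, Tnfrsf13b and Tnfrsf13c were lower, and 40.7% of all genes were called (21.8% higher and 18.9% lower). The medians were -0.36 and 2.05 log2 in these comparisons, and -0.00 and -0.03 over all genes. Across type and state, 8 of the 10 genes differed between the B-labelled resting and T-labelled activated arrays (18.5% of all genes, 9.68% higher and 8.82% lower), and 9 of 10 between the B-labelled activated and T-labelled resting ones (23% of all genes, 13% higher and 9.93% lower). Tnfrsf9, Tnfrsf18, Fas, Cd27, Tnfrsf13b and Tnfrsf13c were called in all 6 comparisons of a pair of groups, as were 3.18% of all genes. Comparisons that use the same group of arrays share its error.

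**Figure D2:**
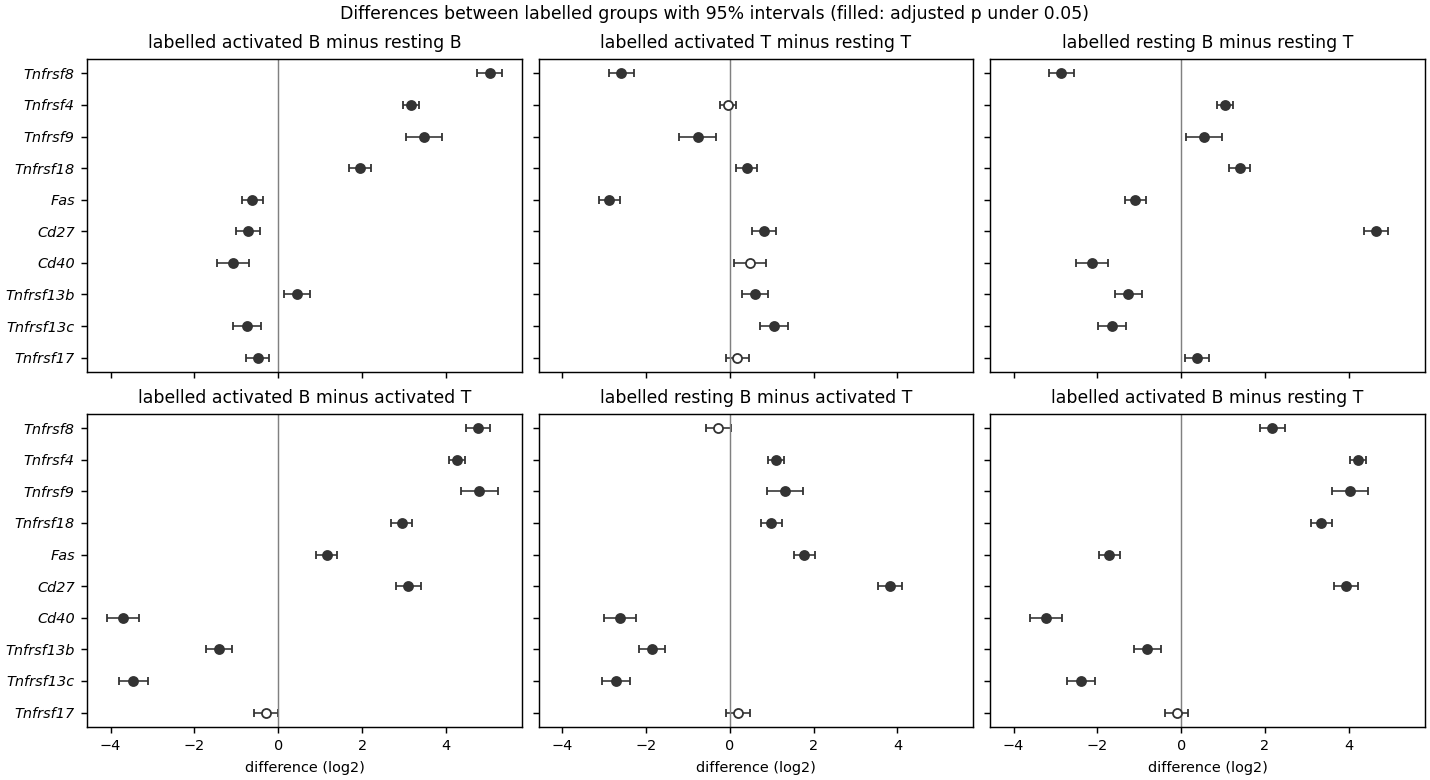
Differences of log2 values (x axis) of the 10 receptor genes (y axis) in the 6 comparisons of a pair of labelled groups, with 95% confidence intervals from limma as bars. Filled points had an adjusted p under 0.05, and open points, such as Tnfrsf4 between the T-labelled activated and resting arrays, did not.

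The sequences before the transcription starts of 6 genes are shown. Tnfrsf8, Tnfrsf9, Tnfrsf4 and Tnfrsf18, all highest in the B-labelled activated arrays, differ in whether they hold letters known as motifs of NF-κB and AP-1. These are factors that costimulation and T cell activation are known to switch on. Fas and Tnfrsf13c, which were highest in other groups, are shown without such a contrast. Each run is the 250 bases that end just before an annotated start, from RefSeq on GRCm38.p6, with capitals for matches to GGGNNNNNCC (NF-κB) or TGANTCA (AP-1) on either strand.

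Tnfrsf8, chr4:145315165-145315414, minus strand: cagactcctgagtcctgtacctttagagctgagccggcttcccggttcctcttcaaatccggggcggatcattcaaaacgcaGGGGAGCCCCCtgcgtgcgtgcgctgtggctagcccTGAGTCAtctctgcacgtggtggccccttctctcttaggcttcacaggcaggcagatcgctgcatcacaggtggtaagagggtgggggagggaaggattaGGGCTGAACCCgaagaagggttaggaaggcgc

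Tnfrsf9, downstream of its 2 annotated starts, chr4:150927749-150927998, plus strand: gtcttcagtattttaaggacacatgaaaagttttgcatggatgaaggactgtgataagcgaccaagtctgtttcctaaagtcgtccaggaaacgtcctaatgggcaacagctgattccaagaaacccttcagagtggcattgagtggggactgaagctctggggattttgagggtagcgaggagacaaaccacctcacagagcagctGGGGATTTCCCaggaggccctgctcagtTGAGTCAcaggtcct

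Tnfrsf4, chr4:156013445-156013694, plus strand: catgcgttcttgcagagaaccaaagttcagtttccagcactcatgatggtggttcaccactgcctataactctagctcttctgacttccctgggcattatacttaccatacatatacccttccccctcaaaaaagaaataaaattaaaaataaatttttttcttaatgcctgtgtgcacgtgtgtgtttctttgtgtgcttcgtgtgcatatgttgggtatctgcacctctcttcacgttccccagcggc

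Tnfrsf18, chr4:156026072-156026321, plus strand: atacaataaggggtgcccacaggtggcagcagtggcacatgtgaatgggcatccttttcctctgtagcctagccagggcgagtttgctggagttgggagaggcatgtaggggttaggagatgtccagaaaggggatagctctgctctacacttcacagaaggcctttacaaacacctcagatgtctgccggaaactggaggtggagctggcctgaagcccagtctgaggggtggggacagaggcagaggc

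Fas, chr19:34290409-34290658, plus strand: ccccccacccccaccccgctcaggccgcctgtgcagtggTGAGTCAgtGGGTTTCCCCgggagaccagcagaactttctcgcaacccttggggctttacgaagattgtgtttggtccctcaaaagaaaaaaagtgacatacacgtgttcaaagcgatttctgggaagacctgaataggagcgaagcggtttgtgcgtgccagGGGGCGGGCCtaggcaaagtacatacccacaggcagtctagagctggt

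Tnfrsf13c, chr15:82224381-82224630, minus strand: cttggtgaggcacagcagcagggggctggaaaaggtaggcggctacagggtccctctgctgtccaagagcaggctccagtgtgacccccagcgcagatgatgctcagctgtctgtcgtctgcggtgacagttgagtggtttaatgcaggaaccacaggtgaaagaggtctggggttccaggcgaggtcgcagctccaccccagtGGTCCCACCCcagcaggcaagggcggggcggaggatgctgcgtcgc

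The table of promoters held 10 starts of 9 of the receptor genes. The NF-κB letters were found in 6 of these 10 windows (Tnfrsf8, the downstream start of Tnfrsf9, Fas, Cd27, Tnfrsf13b and Tnfrsf13c) and in 45.8% of the 32851 windows of this length in the table. The AP-1 letters were in 3 windows, of Tnfrsf8, the downstream start of Tnfrsf9 and Fas, and in 6.75% of all. The letters TTCNNNNGAA, a motif of STAT factors, were in 0 of the 10 and in 5.85% of all. Matches to the NF-κB letters overlapped one another at some places, as in Tnfrsf8 168 and 167 bases before the start, and no match of 1 motif overlapped a match of another. The windows of Tnfrsf4 and Tnfrsf18, which are neighbours on the chromosome, held none of the 3 motifs, although these genes and Tnfrsf9 had like profiles over the arrays. The window of the upstream start of Tnfrsf9, not printed here, held none of them either, so that the contrast with Tnfrsf9 rests on its downstream start. A match of letters is not a bound site, and its absence from a window says nothing of the factor.

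Tnfrsf8 encodes CD30, which is known from activated lymphocytes. Its levels were 5.53, 5.57 and 5.41 log2 in the B-labelled resting arrays and 10.54, 10.37 and 10.72 in the B-labelled activated ones. In the T-labelled resting arrays they were 8.17, 8.51 and 8.42, and in the T-labelled activated ones 5.44, 5.95 and 5.95. Thus, the gene was high in the 6 arrays in which the genes of dividing cells were high, and the B-labelled activated arrays lay above the T-labelled resting ones without overlap. The difference between B-labelled activated and resting arrays was 5.04 log2 (SE 0.14, adjusted p = 1.9e-13), a 32.9-fold higher level. In the T-labelled cells Tnfrsf8 fell by 2.59 log2 with activation (SE 0.14, adjusted p = 2.41e-10), or 6-fold, and the interaction, the difference between the 2 changes, was 7.63 log2 (SE 0.20, adjusted p = 1.71e-14), in a test that called 42.7% of all genes (21.9% higher and 20.9% lower). The B-labelled resting and T-labelled activated groups, both near the background, overlapped and were not called (difference -0.28 log2, 95% interval -0.57 to 0.02, adjusted p = 0.218). Without replicate 4 of the T-labelled activated arrays, that difference was -0.45 log2 and was called (adjusted p = 0.0217).

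Tnfrsf4 encodes OX40, a receptor known to prolong the survival of T cells after activation. Its levels were 10.59, 10.64 and 10.54 log2 in the B-labelled activated arrays and 7.32, 7.41 and 7.53 in the B-labelled resting ones. The T-labelled arrays were lower, at 6.30, 6.38 and 6.43 at rest and 6.36, 6.24 and 6.37 after activation. The B-labelled activated arrays stood apart from all others, and the T-labelled groups overlapped. The rise in the B-labelled cells was 3.17 log2 (SE 0.09, adjusted p = 2.14e-13) or 9.01-fold, and the level after activation was 19.3-fold that of the T-labelled activated arrays (4.27 log2, adjusted p = 7.34e-15). At rest the B-labelled arrays exceeded the T-labelled ones by 1.05 log2 (adjusted p = 5.42e-08). The change in the T-labelled cells was -0.05 log2, with a 95% interval of -0.24 to 0.14 and an adjusted p of 0.75.

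Tnfrsf9 encodes 4-1BB, a costimulatory receptor known from natural killer cells and activated T cells. Its levels were 10.66, 10.72 and 10.44 log2 in the B-labelled activated arrays, and 7.15, 7.11 and 7.13 in the B-labelled resting ones. In the T-labelled resting arrays the gene spread from 6.05 over 6.46 to 7.23, and it was lowest, at 5.61, 5.81 and 6.01, in the T-labelled activated ones. Here too the B-labelled activated arrays lay far above the rest. The rise in the B-labelled cells was 3.48 log2 (SE 0.20, adjusted p = 6.81e-10) or 11.1-fold, and after activation the B-labelled arrays exceeded the T-labelled ones by 27.8-fold (adjusted p = 7.35e-12). Replicate 6 of the T-labelled resting arrays, at 7.23, overlapped the B-labelled resting arrays, and the difference at rest, 0.55 log2, was barely called (adjusted p = 0.0479). That call was kept in the fits without replicate 6 of the T-labelled resting arrays (0.87 log2, adjusted p = 0.000126) or without replicate 6 of the T-labelled activated ones, and lost without any of the other 10 arrays, with an adjusted p of up to 0.28 (0.28 log2) without replicate 4 of the T-labelled resting ones. In the T-labelled cells Tnfrsf9 fell by 0.77 log2 (adjusted p = 0.00684), and by 0.44 log2 without replicate 6 of the T-labelled resting ones (adjusted p = 0.0231). Within the T-labelled resting arrays, all 6 natural killer cell markers were highest in replicate 6, such as Nkg7 (7.89 log2, against 6.67 and 7.21). The means of 4 of them were not above the background. The T cell marker Cd3g was also highest there (6.08, against 4.74 and 5.49), but Cd3e was not. The part of these markers in the level of Tnfrsf9 was not tested.

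Tnfrsf18 encodes GITR, which is known from T cells of the regulatory and activated kind. Its values were 10.77, 10.73 and 10.66 log2 in the B-labelled activated arrays and 8.58, 8.81 and 8.93 in the B-labelled resting ones. The T-labelled resting arrays were at 7.12, 7.52 and 7.50 and the T-labelled activated ones at 7.92, 7.67 and 7.77, so that none of the 4 groups overlapped. The rise in the B-labelled cells was 1.95 log2 (SE 0.12, adjusted p = 1.29e-09) and that in the T-labelled cells 0.41 log2 (adjusted p = 0.0144). The second was no longer called without replicate 4 of the T-labelled resting arrays (adjusted p = 0.0923), without replicate 4 of the T-labelled activated ones (adjusted p = 0.0695), or with each array centred on the median of all its probe sets (adjusted p = 0.0766). Of the 5 markers of regulatory T cells, 2 rose and 3 fell between the B-labelled resting and activated arrays (19.7% and 16.7% of all genes). The transcription factor genes Foxp3 and Ikzf2 were at 7.04 ± 0.04 and 8.25 ± 0.45 log2 (SD, n = 3) in the B-labelled resting arrays and at 5.91 ± 0.13 and 6.08 ± 0.07 in the B-labelled activated ones. Ctla4, an inhibitory receptor gene, was at 8.51 ± 0.25 and 10.48 ± 0.17, and Il2ra, an interleukin receptor gene that is also known from activated T cells, at 7.27 ± 0.06 and 11.97 ± 0.08. The summed level of the 5 markers, in which Il2ra and Ctla4 weigh most, was 10.04 to 10.42 and 12.4 to 12.5 in these groups, and 8.89 to 9.32 and 7.54 to 7.97 in the T-labelled resting and activated arrays, and the part of these markers in the level of Tnfrsf18 was not tested.

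Cd27 encodes a costimulatory receptor known from resting T cells. It was at 9.29, 9.47 and 9.55 log2 in the B-labelled resting arrays and at 8.37, 8.95 and 8.81 in the B-labelled activated ones. In the T-labelled resting arrays it was at 4.81, 4.75 and 4.81, below the background level, and in the T-labelled activated ones at 5.55, 5.45 and 5.82. Cd27 was high where the T cell markers were high, with no overlap between the 6 B-labelled arrays and the 6 T-labelled ones. At rest the difference was 4.65 log2 (SE 0.14, adjusted p = 2.93e-13), with the T-labelled arrays below the background, where differences are compressed. With labelled activation Cd27 fell by 0.73 log2 in the B-labelled cells (adjusted p = 0.000341) and rose by 0.82 in the T-labelled ones (adjusted p = 0.00012). Its interaction was -1.54 log2 (SE 0.19, adjusted p = 3.43e-06).

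Fas encodes the death receptor CD95, by which activated lymphocytes are known to be removed. Its levels were 8.07, 8.57 and 8.53 log2 in the T-labelled resting arrays and 5.44, 5.64 and 5.48 in the T-labelled activated ones. The B-labelled resting ones were at 7.24, 7.32 and 7.32 and the B-labelled activated ones at 6.75, 6.63 and 6.65. The groups did not overlap, and their order was resting T, resting B, activated B and activated T by label. Fas fell with labelled activation in both cell types, by 2.87 log2 (SE 0.12, adjusted p = 1.15e-11) or 7.32-fold in the T-labelled cells, and by 0.62 log2 (SE 0.12, adjusted p = 0.000398) or 1.54-fold in the B-labelled cells. The interaction of 2.25 log2 (SE 0.17, adjusted p = 6.91e-09) was the difference between these falls. Of the 10 genes, Fas had the smallest share of its sum of squares over the arrays between the labelled cell types, 0.02%, and the largest between labelled rest and activation, 69.6%.

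**Figure D3:**
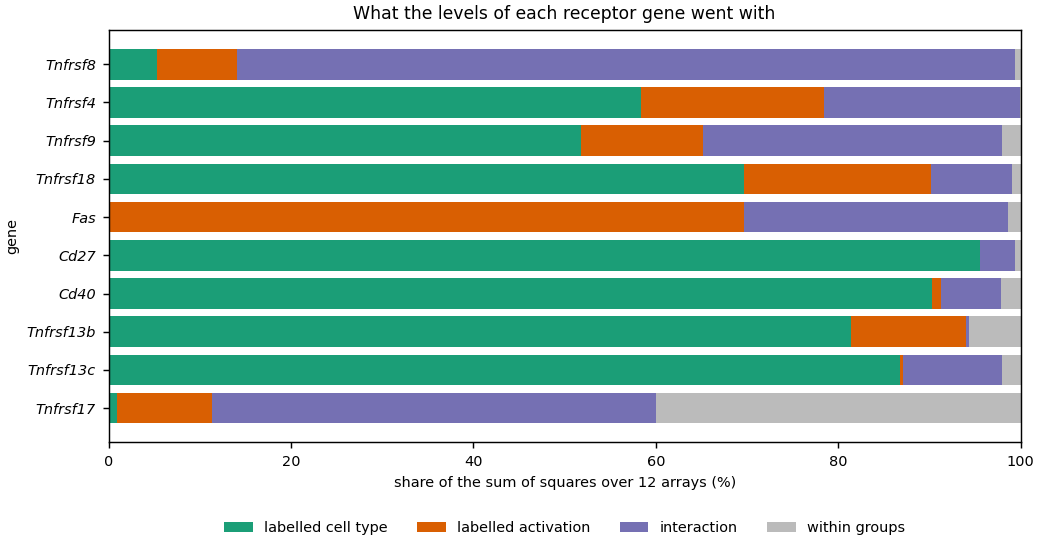
Share of the sum of squares over the 12 arrays (%, x axis) that lay between the labelled cell types, between labelled rest and activation, in their interaction, and within groups, for each receptor gene (y axis). The labelled cell type took 95.6% for Cd27 and 90.3% for Cd40, the interaction 85.3% for Tnfrsf8, and labelled activation 69.6% for Fas.

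Cd40 encodes the receptor through which B cells take up help from T cells, and αCD40, the antibody in the culture of the labelled activated B cells, binds its protein. It was at 9.55, 9.31 and 9.08 log2 in the T-labelled activated arrays and at 8.84, 8.91 and 8.76 in the T-labelled resting ones. The B-labelled resting arrays were at 6.49, 7.22 and 6.40, and the B-labelled activated ones at 5.87, 5.45 and 5.52, just above the background. Cd40 was thus high where the B cell markers were high. In the B-labelled resting arrays, replicate 2 had the highest level of Cd40 and also of the B cell genes Ms4a1 (9.47 log2, against 7.78 and 8.32) and Cd79a (8.85, against 7.88 and 8.09). Over the 9 markers of myeloid and dendritic cells, which are also known to carry CD40, the sums were 10.3 to 10.9 and 7.90 to 8.10 in the B-labelled resting and activated arrays, and 9.40 to 9.73 and 10.04 to 10.45 in the T-labelled ones. Within the B-labelled resting arrays, all of these markers but Itgam were also highest in replicate 2, as was Csf1r (8.14 log2, against 7.72 and 7.26). The methods name CD11b and Gr-1, which myeloid cells carry, among the proteins by which cells were removed from the resting B cells, and the part of these markers in the level of Cd40 was not tested. Cd40 fell by 1.09 log2 in the B-labelled cells (SE 0.18, adjusted p = 0.000107), and by 0.83 log2 without that replicate (adjusted p = 0.000242). After activation the B-labelled arrays were 3.70 log2 or 13-fold below the T-labelled ones (adjusted p = 3.4e-11). The labelled T groups did not overlap, and their difference of 0.48 log2 (95% interval 0.10 to 0.86) missed the threshold with an adjusted p of 0.0507. It passed with the replicate number as a block (adjusted p = 0.0448), without replicate 2 of the B-labelled resting arrays (adjusted p = 0.00824), and in 6 other fits listed with the limits.

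Tnfrsf13c encodes the BAFF receptor, on which mature B cells are known to depend. It was at 10.70, 10.27 and 10.25 log2 in the T-labelled activated arrays and 9.50, 9.47 and 9.06 in the T-labelled resting ones. The B-labelled resting arrays were at 7.55, 7.95 and 7.58 and the B-labelled activated ones at 6.70, 7.19 and 6.96. No groups overlapped, and the order of the groups was that of Cd40. The difference between labelled activated B and activated T was -3.46 log2 (SE 0.16, adjusted p = 1.9e-11), or 11-fold. Tnfrsf13c rose by 1.06 log2 in the T-labelled cells (adjusted p = 4.67e-05), fell by 0.74 log2 in the B-labelled cells (adjusted p = 0.00125), and had an interaction of -1.80 log2 (adjusted p = 3.91e-06).

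Tnfrsf13b encodes TACI, a second receptor of BAFF that also binds APRIL. It was at 9.16, 8.86 and 8.96 log2 in the T-labelled activated arrays and at 8.27, 8.43 and 8.47 in the T-labelled resting ones. The B-labelled activated arrays were at 7.57, 7.50 and 7.68 and the B-labelled resting ones at 6.69, 7.38 and 7.33. It was higher in the T-labelled arrays than in the B-labelled ones, as Cd40 and Tnfrsf13c were, but within the B-labelled cells the arrays labelled activated lay above those at rest. The rises with labelled activation were 0.45 log2 in the B-labelled cells (SE 0.15, adjusted p = 0.023) and 0.60 in the T-labelled ones (SE 0.15, adjusted p = 0.00391), and the interaction of -0.15 log2 (95% interval -0.59 to 0.29, adjusted p = 0.625) was not called. The first rise was 0.23 log2 and not called without replicate 1 of the B-labelled resting arrays (adjusted p = 0.132). It was also not called without replicate 1 or 3 of the B-labelled activated ones (adjusted p = 0.0522 and 0.0817), or after quantile normalization (adjusted p = 0.0593).

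Tnfrsf17 encodes BCMA, which is known to sustain plasma cells. It was at 4.97, 5.28 and 5.48 log2 in the B-labelled resting arrays, at 4.69, 4.66 and 4.90 in the B-labelled activated ones, at 4.99, 4.66 and 4.93 in the T-labelled resting ones and at 4.87, 5.05 and 5.21 in the T-labelled activated ones. Only 2 of the 12 arrays were above the background, both B-labelled resting ones, and the groups overlapped except for the B-labelled resting and activated ones. In order of their means, no group differed from its neighbour (adjusted p = 0.385, 0.355 and 0.663). The B-labelled activated arrays were lower than the B-labelled resting ones by 0.49 log2 (SE 0.13, adjusted p = 0.00699), and at rest the B-labelled arrays were higher by 0.38 (adjusted p = 0.0338), a call that was lost in 6 other fits, among them those without replicate 2 or 3 of the B-labelled resting arrays or replicate 5 of the T-labelled resting ones (adjusted p = 0.0872, 0.175 and 0.161). Jchain, a plasma cell gene for the chain that joins secreted antibodies, was at 10.97 ± 0.30 log2 (SD, n = 3) in the B-labelled resting arrays, 8.42 ± 0.87 in the T-labelled resting ones, 5.58 ± 0.34 in the T-labelled activated ones and 4.30 ± 0.21 in the B-labelled activated ones. Of the 6 plasma cell markers, Jchain among them, 3 rose and 2 fell between the B-labelled resting and activated arrays (19.7% and 16.7% of all genes). The transcription factor genes Xbp1 and Irf4 went from 8.74 ± 0.33 to 10.31 ± 0.17 and from 6.63 ± 0.26 to 9.63 ± 0.22. Over all 6 the sums were 11.2 to 11.7 and 11.1 to 11.4 in the B-labelled resting and activated arrays, and 12.6 to 12.7 and 10.95 to 11.02 in the T-labelled ones. Cells with CD138 on their surface, as plasma cells have, were among those removed from the resting B cells by the methods, and the part of these genes in the level of Tnfrsf17 was not tested.

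**Figure D4:**
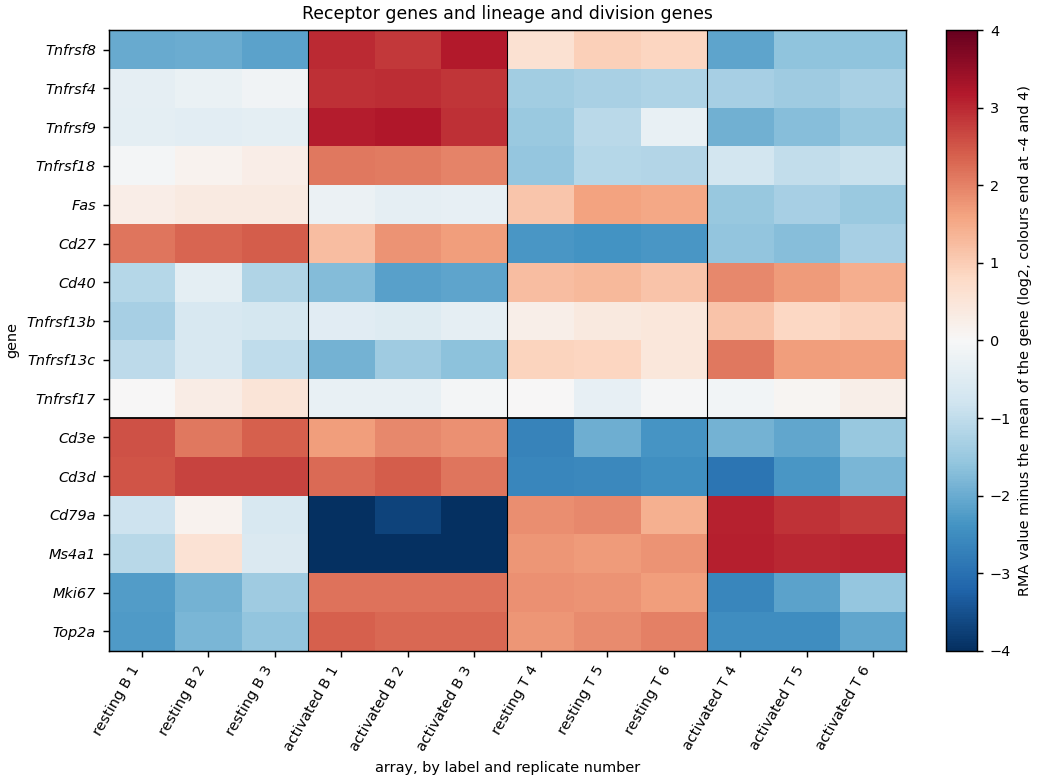
RMA values minus the mean of the gene over the 12 arrays (log2, colour from blue, below, to red, above, ending at -4 and 4) for the 10 receptor genes and 6 marker genes (y axis) in each array (x axis). Cd27 is red in the arrays in which the T cell genes Cd3e and Cd3d are, Cd40 and Tnfrsf13c in those in which the B cell genes Cd79a and Ms4a1 are reddest, and Tnfrsf8 in those in which the division genes Mki67 and Top2a are.

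The range between the highest and the lowest group mean was 5.04 log2 for Tnfrsf8, 4.79 for Tnfrsf9, 4.65 for Cd27, 4.27 for Tnfrsf4, 3.70 for Cd40, 3.46 for Tnfrsf13c, 3.35 for Tnfrsf18, 2.87 for Fas, 1.86 for Tnfrsf13b and 0.49 for Tnfrsf17. The median range was 0.34 log2 over all genes and 0.57 over those above the background in at least 1 group. The ranges of 9 of the 10 genes, all but Tnfrsf17, were at least as wide as those of 93.3% of all genes. Among genes above the background in at least 1 group, that share was 89.6%, and 44.9% for Tnfrsf17. The share of the sum of squares that lay within groups was 0.13% for Tnfrsf4 and at most 5.72% for Tnfrsf13b among those 9 genes. For Tnfrsf17 it was 40.0%, near the median of 39.6% over all genes, while the median of genes above the background was 16.9%.

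Over the 12 arrays, Tnfrsf4 correlated with Tnfrsf18 and Tnfrsf9 with r = 0.98 each, Cd40 with Tnfrsf13c with r = 0.97, and Tnfrsf18 with Cd40 with r = -0.91. These values describe 4 groups of arrays rather than 12 independent points. Among genes above the background in at least 1 group, the chemokine receptor gene Ccr8 was most like Tnfrsf4 (r = 0.996), the inhibitory receptor gene Pdcd1 most like Tnfrsf18 (r = 0.996), Raph1 most like Tnfrsf9 (r = 0.992), and Cs, the gene of the mitochondrial citrate synthase, most like Tnfrsf8 (r = 0.994). Cd27 was most like the T cell coreceptor gene Cd4 (r = 0.995), followed by the interleukin receptor gene Il7r (r = 0.9936) and the T cell receptor segment Trbv1 (r = 0.9935). Cd40 was most like the sulphotransferase gene Chst3 (r = 0.994), the MHC class II regulator Ciita (r = 0.993) and the B cell receptor regulator Cd22 (r = 0.992). The nearest gene was Niban1 for Fas (r = 0.981), Cnn3 for Tnfrsf13b (r = 0.981), Dennd5b for Tnfrsf13c (r = 0.9905) and Zfp942 for Tnfrsf17 (r = 0.917).

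The ligands of the receptors were measured on the same arrays. Of 17 listed TNF family ligands 15 were measured. Between B-labelled activated and resting arrays 6 rose and 5 fell (19.7% and 16.7% of all genes), and between T-labelled activated and resting arrays 2 rose and 3 fell (15.9% and 17.8% of all genes). At rest 8 were higher and 3 lower in the B-labelled arrays (16.1% and 19% of all genes), and after activation 9 were higher and 2 lower (21.8% and 18.9% of all genes). Tnfsf18, which was above the background in no array, is counted among those that fell in the B-labelled cells and rose in the T-labelled cells. It is also counted among those higher at rest and those lower after activation. The medians were 0.19, 0.15, 0.39 and 0.51 log2 in these comparisons, against at most 0.03 in size over all genes. Where a ligand gene lies below the background in a group, its difference from that group is compressed. Tnfsf8, the ligand of CD30, was at 7.98, 8.27 and 8.36 log2 in the B-labelled resting arrays and 9.18, 8.73 and 8.60 in the B-labelled activated ones, while both T-labelled groups had means below the background. Its difference between labelled B and T was 3.21 log2 at rest and 4.00 after activation (adjusted p = 2.18e-10 and 9.49e-12). Thus the B-labelled resting arrays were high in the ligand gene and near the background in the receptor gene Tnfrsf8, and the B-labelled activated ones were high in both.

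Cd40lg, the gene of the CD40 ligand that helper T cells are known to show, was at 7.34, 6.81 and 6.93 log2 in the B-labelled resting arrays, and its mean was 5.24 ± 0.17 (SD, n = 3) in the B-labelled activated ones and below the background in both T-labelled groups. It fell by 1.78 log2 in the B-labelled cells (adjusted p = 1.32e-07), as its receptor gene Cd40 did. Fasl, the gene of the Fas ligand of cytotoxic cells, was at 6.58, 6.95 and 7.52 log2 in the B-labelled resting arrays and at means of 5.02 to 5.32 elsewhere. It fell by 1.70 log2 in the B-labelled cells (adjusted p = 5.02e-06), and its difference between labelled B and T was 2.0 log2 at rest (adjusted p = 7.3e-07). The sums over the 6 markers of natural killer cells, which are known to carry Fas ligand, were 11.4 to 11.9 and 11.2 to 11.6 in the B-labelled resting and activated arrays, and 8.16 to 9.32 and 8.71 to 9.94 in the T-labelled ones. Nkg7, which is also known from cytotoxic T cells, led these sums in the B-labelled arrays, at 10.85 ± 0.19 and 10.98 ± 0.17. Of the 6 markers, 4 fell between the B-labelled resting and activated arrays and 0 rose (16.7% and 19.7% of all genes). Among them the receptor gene Ncr1 went from 7.96 ± 0.73 to 3.97 ± 0.11, below the background. The part of these markers in the level of Fasl was not tested.

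Tnfsf4 and Tnfsf9, the genes of the ligands of OX40 and 4-1BB, rose by 1.67 and 0.73 log2 in the B-labelled cells (adjusted p = 3.82e-06 and 1.91e-05), to means of 5.7 and 5.35. They fell by 0.94 and 2.0 log2 in the T-labelled cells (adjusted p = 0.0013 and 1.4e-10). The means of Tnfsf4 were below the background in both the T-labelled resting and activated arrays, at 5.13 and 4.18 log2. That of Tnfsf9 was below it in the T-labelled activated ones, at 4.62. In the B-labelled resting arrays both genes were below it, at 4.03 and 4.62, so that none of these changes has an exact size. Tnfsf9 was highest in the T-labelled resting arrays, at 6.52, 6.78 and 6.58. Tnfsf18 and Cd70, the genes of the ligands of GITR and CD27, were above the background in 0 of the 12 arrays. Tnfsf13b, the gene of BAFF, was above it in the 3 B-labelled activated arrays alone, with a mean of 5.42 ± 0.09 (SD, n = 3). The ligands of TACI and BCMA encoded by Tnfsf13 were not analysed here.

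**Figure D5:**
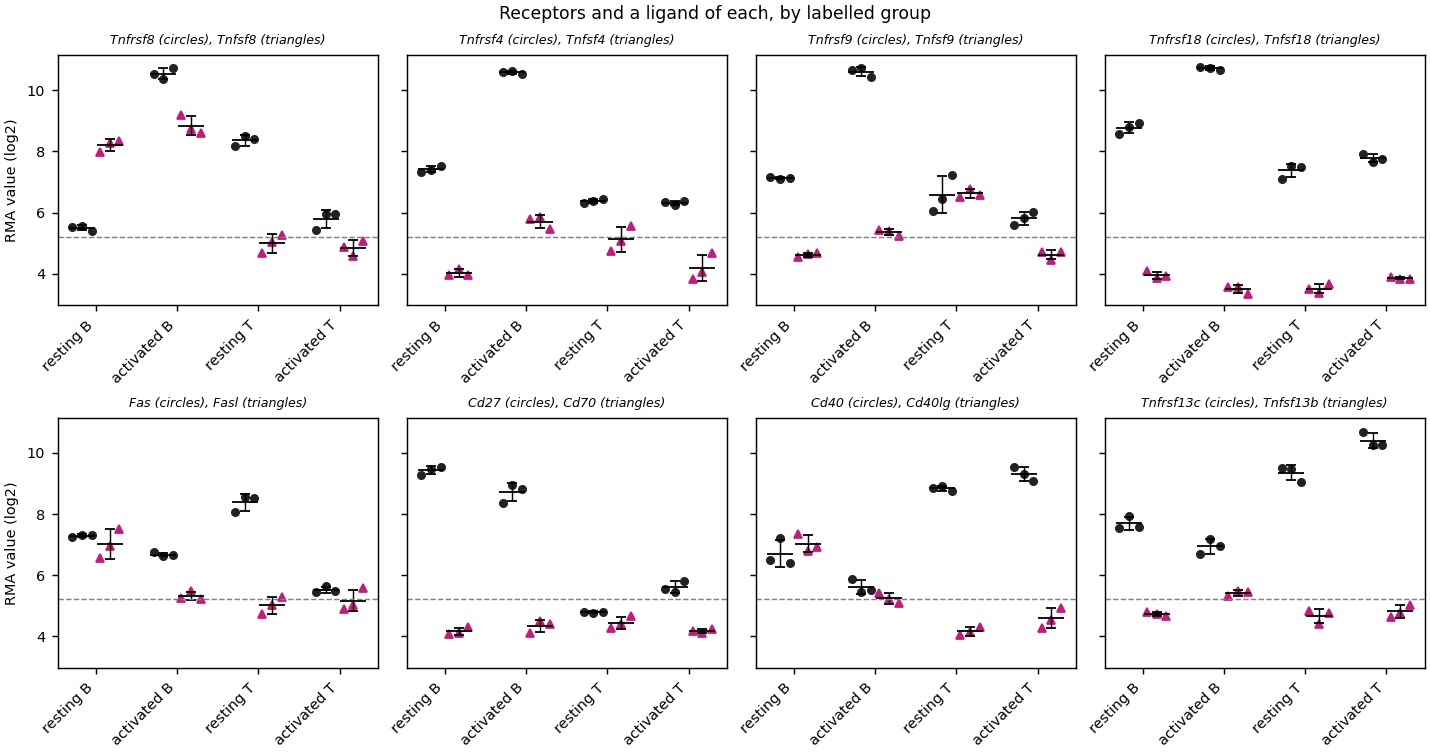
RMA values (log2, y axis) of 8 receptor genes (circles) and the gene of a ligand of each (triangles) by labelled group (x axis), with 1 point per array, bars for mean and SD, and a dashed line at the background (5.21 log2). Levels can be set against each other between groups, not between the 2 genes of a panel, which different probes read. Tnfsf8 is high in both B-labelled groups, Cd40lg and Fasl in the B-labelled resting arrays, and Tnfsf18 and Cd70 stay below the background.

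Ltb, the gene of lymphotoxin β, which shapes lymphoid tissue, fell by 1.84 log2 in the B-labelled cells (adjusted p = 2.6e-09) and rose by 1.83 in the T-labelled cells (adjusted p = 2.95e-09). Tnfsf10, the gene of the death ligand TRAIL, was higher by 2.09 log2 at rest and 2.70 after activation in the B-labelled arrays (adjusted p = 8.49e-08 and 2.4e-09). Its receptor gene Tnfrsf10b, of the list of other TNF receptor genes, rose by 1.20 log2 in the B-labelled cells and fell by 2.50 in the T-labelled cells (adjusted p = 8.71e-06 and 1.52e-09). Tnfrsf10b in the T-labelled activated arrays and Tnfsf10 in the T-labelled resting ones, with means of 4.56 and 5.09 log2, were not above the background, so that the differences from these groups have no exact size. Of the 18 genes of that list, all measured, 4 rose and 6 fell in the B-labelled cells, 5 rose and 5 fell in the T-labelled cells, and 9 were higher and 2 lower in the B-labelled arrays at rest, with medians of -0.16, 0.06 and 0.30 log2. Of all genes, 36.5%, 33.7% and 35.1% were called in these comparisons. The genes higher at rest included Tnfrsf1a, the gene of the widely expressed TNF receptor (1.86 log2, adjusted p = 7.05e-09), and Tnfrsf25, the gene of the death receptor DR3 of T cells (1.70 log2, adjusted p = 1.65e-08).

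Downstream of the receptors, 12 of 14 listed genes of the TRAF adaptors and the alternative NF-κB pathway were measured. In the B-labelled cells 1 rose and 8 fell, with a median of -0.35 log2, and in the T-labelled cells 4 rose and 4 fell, with a median of -0.08. The medians of all genes were -0.02 and 0.02, with 19.7% called as higher and 16.7% as lower in the B-labelled cells and 15.9% and 17.8% in the T-labelled ones. Traf5, an adaptor of CD27, CD30, OX40 and CD40, was at 8.64, 8.58 and 8.54 log2 in the B-labelled resting arrays and 6.82, 7.11 and 6.95 in the B-labelled activated ones, and at 7.74, 7.74 and 7.54 and then 9.60, 9.52 and 9.40 in the T-labelled resting and activated ones. It therefore changed in opposite directions, by -1.63 and 1.83 log2 (adjusted p = 1.2e-09 and 2.89e-10), and its interaction was -3.46 (adjusted p = 3.84e-12). Tnfaip3, the gene of the NF-κB inhibitor A20, fell by 1.13 log2 in the B-labelled cells and by 1.35 in the T-labelled cells (adjusted p = 9.07e-07 and 1.24e-07).

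At rest 2 of the 12 genes were higher and 5 lower in the B-labelled arrays, and after activation 2 were higher and 8 lower. The shares of all genes were 16.1% higher and 19% lower at rest, and 21.8% and 18.9% after activation. Nfkb2, the gene of the precursor of the NF-κB subunit p52, was lower by 1.59 and 1.25 log2 (adjusted p = 1.36e-09 and 2.1e-08). Birc3, the gene of a ubiquitin ligase that binds TRAF proteins, was lower by 0.93 log2 at rest and by 1.76 after activation (adjusted p = 8.11e-06 and 2.44e-09). Of 7 listed genes of death receptor signalling 6 were measured, of which 2 rose and 1 fell in the B-labelled cells, and 0 rose and 2 fell in the T-labelled cells, with medians of 0.05 and -0.04 log2. The share of all genes called was 36.5% and 33.7%, close to that of this list in the T-labelled cells. Fadd, the gene of the adaptor of the death domain, fell by 0.33 log2 in the T-labelled cells (adjusted p = 0.0389), but the 2 groups overlapped. That call was lost with the replicate number as a block (adjusted p = 0.0567), quantile normalization (0.078) and the arrays of these groups alone (0.0699). It was also lost without replicate 5 or 6 of either T-labelled group, with an adjusted p of up to 0.195. Cflar, the gene of the caspase-8 inhibitor c-FLIP, fell in both, by 0.80 and 1.25 log2 (adjusted p = 3.55e-05 and 2.92e-07), as Fas did. Bid, which carries the death signal to mitochondria, was lower in the B-labelled arrays by 0.97 log2 at rest and 0.98 after activation (adjusted p = 2.75e-07 and 1.71e-07).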

How the data were processed

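Total RNA from Trizol was hybridised to 12 mouse gene arrays. The values deposited by the authors are log2 intensities of probe sets, made with RMA (version not given in the sources used here), which corrects background and brings arrays to 1 distribution, so that a shift of most genes cannot be seen and low levels are compressed. Array medians were 5.50 to 5.68 log2. Arrays hold no read depth, and their number limits the precision. Of 34760 probe sets, 21640 had 1 gene symbol, 1321 several and 11799 no gene named here. For 954 genes the probe set with the highest mean was taken of several. The background level is the 95th percentile of 1027 olfactory receptor genes. limma 3.58.1 in R 4.3.3 (lmFit, eBayes) was fitted to all 12 arrays with a mean per labelled group and no covariate (residual degrees of freedom 8, prior 7.8), and p-values were adjusted by Benjamini-Hochberg over 19937 genes at a threshold of 0.05. On simulated data over 19937 genes for the B-labelled activated and resting arrays, the fit called 56% of 50 genes changed by 0.5 log2, 96% of 100 changed by 1 and 100% of 50 changed by 2, and 8 of its 182 calls were false. The simulated noise was independent between genes, and far fewer genes were changed than the 36.5% called between the real groups. These shares therefore do not measure the power or the false calls of the fit to the real arrays. Figures were drawn with Python 3.11.15 and matplotlib 3.10.9.

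The receptor genes and lists were chosen with earlier results of these data known. Named are all receptor genes, in each list and comparison the 3 called genes with the largest difference, the 3 genes most alike to a receptor and the leading markers. The ligands of the receptors, Cd5, Ctla4, Il2ra, Irf4, Nkg7 and the list genes set beside a named value in another comparison were named outside this rule. Some named genes are not printed. Correlations are Pearson's over 12 arrays. Groups were taken from the labels, and replicate numbers are shared by labelled resting and activated cells. Over 12867 genes, arrays that share a number deviated from their groups with r = -0.05, 0.05 and 0.23 for B and r = 0.21, 0.14 and 0.22 for T. Arrays with different numbers reached at most r = 0.14 for B and 0.02 for T. Whether the numbers mark pairs was not tested. No array copied another, with at most 0.07% of values identical. The other settings tried were centring, quantile normalization, a filter on dim genes, averaging the probe sets of a gene, the arrays of the groups compared alone, an intensity trend, array weights, the replicate block, leaving out each array, and, chosen after seeing the data, centring on the median of all probe sets.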

Additional observations from a re-analysis of the deposited data

Results flagged for a closer look

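The change with labelled activation differed between the labelled B and T cells for 9 of the 10 receptor genes, by the interaction term of limma, which called 42.7% of all genes. The interaction is the change in the B-labelled cells minus that in the T-labelled cells. It was 7.63 log2 for Tnfrsf8 (adjusted p = 1.71e-14), 4.25 for Tnfrsf9 (adjusted p = 2.49e-09), 3.22 for Tnfrsf4 (adjusted p = 2.13e-12), 2.25 for Fas (adjusted p = 6.91e-09) and 1.54 for Tnfrsf18 (adjusted p = 8.73e-07). It was -1.80 for Tnfrsf13c (adjusted p = 3.91e-06), -1.57 for Cd40 (adjusted p = 6.5e-05), -1.54 for Cd27 (adjusted p = 3.43e-06) and -0.68 for Tnfrsf17 (adjusted p = 0.00739), whose levels lay near the background. The genes of dividing cells were high in the B-labelled activated and T-labelled resting arrays, and their part in these differences was not tested.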

How the results depend on the processing

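The number of receptor genes called moved by at most 2 genes in any comparison under the alternatives. With 1 array left out it was 9 to 10 of 10 between B-labelled activated and resting arrays, 6 to 8 between T-labelled activated and resting arrays, and 8 to 10 between the labelled types at rest. Of the values of the receptor genes under settings other than leaving out an array, 566 kept their direction and their side of the threshold, 8 lost and 4 gained a call, and 2 turned. The change of Tnfrsf4 in the T-labelled cells was 0.0066 log2 after quantile normalization (adjusted p = 0.962), and the interaction of Tnfrsf13b was 0.0639 with centring on the median of all probe sets (adjusted p = 0.837). With 1 array left out 817 were alike, 18 lost and 5 gained a call. Centring on the median of all probe sets shifted the median of all genes by 0.11 log2 between B-labelled activated and resting arrays, -0.10 between T-labelled activated and resting arrays, 0.13 between the labelled types after activation and 0.21 in the interaction. The share of higher genes among all called moved with it from 54.1% to 66.6%, from 47.3% to 33.9%, from 53.5% to 68.5% and from 51.2% to 67.6%. The cause was not tested.

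The difference of Cd40 between the labelled T groups also passed after quantile normalization (adjusted p = 0.0271), with the filter on dim genes (0.0379), with the arrays of these groups alone (0.00986), and without replicate 3 of the B-labelled resting arrays (0.0387), replicate 1 of the B-labelled activated ones (0.0459) or replicate 6 of the T-labelled activated ones (0.0294). The replicate block, with an adjusted p of 0.0448 there, changed no other call of a receptor gene. Tnfrsf9 at rest was lost with the arrays of these groups alone (0.0835), with the intensity trend (0.107) and with centring on all probe sets (0.0648), and Tnfrsf17 at rest with quantile normalization (0.0507), the arrays of these groups alone (0.0551) and centring on all probe sets (0.0807). Of the named list genes, Fadd, Cflar, Faim, Casp8, Cd70, Tnfsf8 and Tnfsf18 lost a call in some fits, and none turned. Levels near the background, as of Tnfrsf17, limit what can be seen.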
